A study of Mus musculus with 6 samples.

Results

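Cytochrome P450 genes were followed in the pancreas of mice with and without PARP2, a poly(ADP-ribose) polymerase that acts at broken DNA in the nucleus. The genes were taken by name, as every listed symbol of the form Cyp, family number, subfamily letter and gene number, with pseudogenes and Cyp51 left out. That rule gave 58 of the 29721 listed genes, and 29 of the 58 had enough counts to be tested. The rule itself used no measured value. However, every listed gene held at least 2 counts over the 6 libraries, so P450 genes with fewer could not enter. P450 enzymes are heme proteins of the endoplasmic reticulum or the mitochondria that insert oxygen into lipids, hormones, vitamins and foreign chemicals. Those of the endoplasmic reticulum take electrons from P450 reductase, encoded by Por, and those of the mitochondria from ferredoxin, encoded by Fdx1, and its reductase, encoded by Fdxr. The liver holds the most of them, while other organs, the pancreas included, express a narrower set.

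All 6 mice carried the Ela-myc transgene, in which the elastase promoter drives Myc in acinar cells, the digestive enzyme-secreting cells of the pancreas, and all were 3 months old. One genotype was Parp2 wild type (WT, 3 animals) and the other PARP2 knockout (KO, 3 animals), with each RNA-seq library from a different animal. No group lacked the transgene, so every comparison is of PARP2 loss within this tumour model. How Parp2 was disrupted was not stated in the labels. The tissue is labelled pancreas and the deposited counts are named preneoplastic, whereas the extraction protocol speaks of tumour samples. Libraries are called WT1 to WT3 and KO1 to KO3 below, with numbers given in deposition order only, and Y-linked and Xist transcripts showed WT1, WT2 and KO1 to be male and the others female.

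Libraries held between 28105021 and 32055565 counts. Values are CPM, the library-size-scaled counts of edgeR with TMM factors, and differences are log2 fold changes, knockout minus wild type, from edgeR's quasi-likelihood test with Benjamini-Hochberg adjustment over 17652 genes and a threshold of 0.05. Parp2 was at 36.4 to 40.5 CPM in the wild-type libraries and 12.4 to 14.4 CPM in those labelled knockout, without overlap. The 12 acinar marker genes together gave 171889 to 249040 CPM in wild type but 25408 CPM in KO1, 99172 CPM in KO2 and 106 CPM in KO3, so KO3 stood apart and did not carry the markers of the labelled tissue at the level of the others. By edgeR 0 of the 12 passed the test, with 1 at an unadjusted p under 0.05, and DESeq2 called 2 and limma 1, with or without voom. The 9 fat cell markers together gave 934 to 2144 CPM in wild-type and 11554 to 15284 CPM in knockout libraries. All 9 passed the test as higher in knockout, as did all 8 T cell, all 7 B cell and 6 of 7 endothelial markers. Duct markers together gave 1294 to 2063 CPM in wild type and 14.2 to 589 CPM in knockout, and islet markers 1319 to 3218 CPM and 2.93 to 562 CPM, with 3 called lower in each list. In bulk tissue, fewer cells of a type and less RNA per cell cannot be told apart, and the part of these marker shifts in the P450 results below was not tested.

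Of the 29 tested P450 genes, 13 were higher and 6 lower in knockout, and 10 did not pass the test. In percentages, 65.5% of the tested P450 genes were called, against 53.0% of all tested genes. The higher calls made up 44.8% against 28.0% of all genes, and the lower calls 20.7% against 25.0%. The median log2 fold change was 0.40 over the tested P450 genes and 0.02 over all tested genes, and the median absolute value 1.05 against 0.61. These shares describe genes that passed a filter on counts and are not a test of the family. Differences ran from -3.10 for Cyp27b1 to 3.84 for Cyp2e1, and 7 of the higher and 3 of the lower genes reached at least 1 on the log2 scale. Every knockout library lay above every wild-type library for 13 of the tested genes and below for 9, against 34.4% and 33.7% of all genes. Without KO3, 31 P450 genes were tested, of which 11 were higher and 5 lower, against 23.5% and 20.4% of all genes in that fit.

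**Figure D1:**
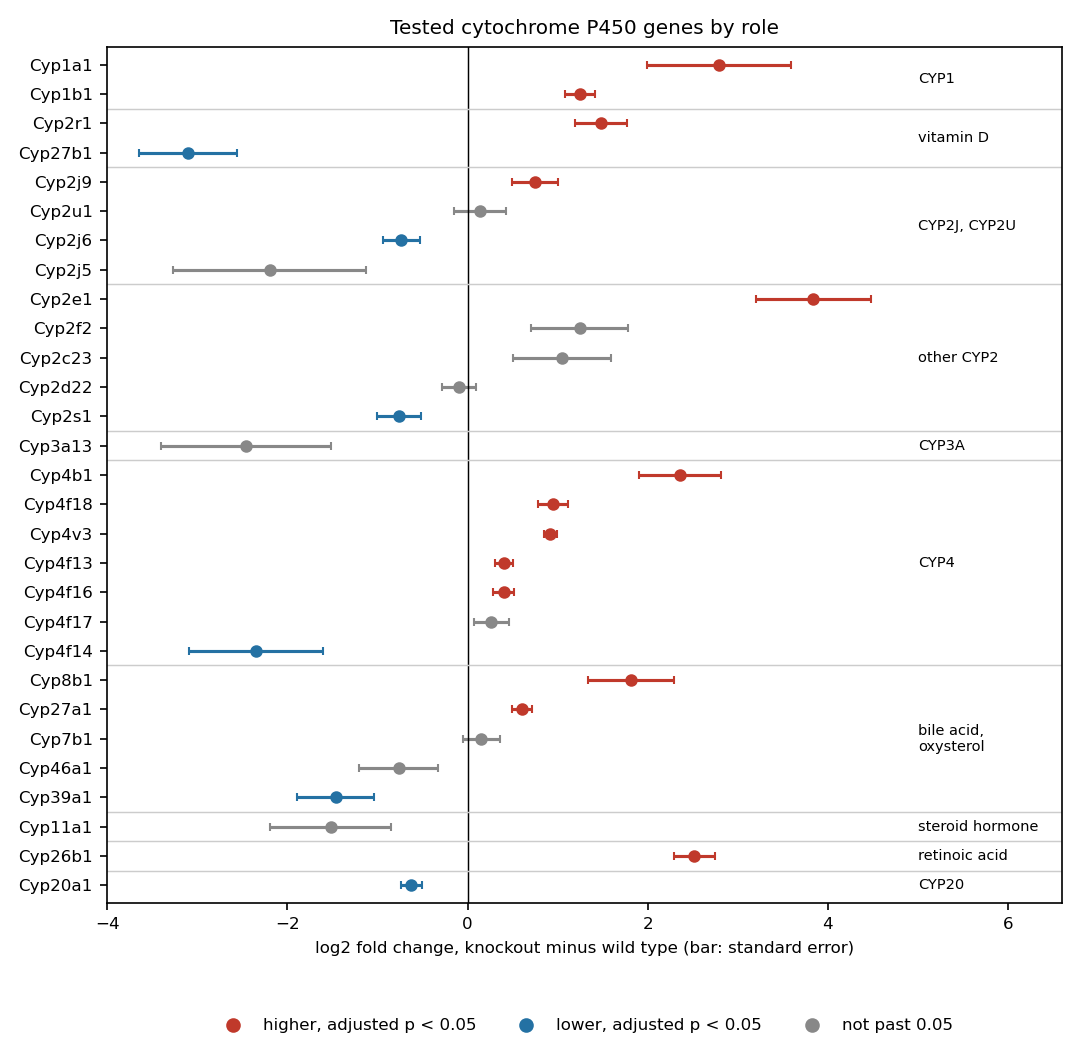
Log2 fold change (knockout minus wild type, x axis) of the 29 tested P450 genes, arranged by role on the y axis, with the standard error as the bar and the edgeR call as the colour. Members of the same role group lie on both sides of 0 in several groups, and the range runs from -3.10 (Cyp27b1) to 3.84 (Cyp2e1).

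The CYP1 enzymes oxidise polycyclic aromatic compounds and estrogens, and their genes are textbook targets of the aryl hydrocarbon receptor, AHR, a transcription factor switched on by such ligands. Both listed CYP1 genes rose. Cyp1b1 (ENSMUSG00000024087, chromosome 17, 79701537 to 79715061) read 85.1, 55.9 and 73.0 CPM in WT1 to WT3 and 182, 176 and 151 CPM in KO1 to KO3. The knockout libraries were close to each other and all above the highest wild-type library. The means were 71.3 ± 14.7 CPM for wild type and 169.8 ± 16.4 CPM for knockout (SD, n = 3 animals a genotype), a log2 difference of 1.25 (SE 0.169, edgeR adjusted p = 0.00308). Cyp1a1 (ENSMUSG00000032315, chromosome 9, 57687928 to 57703824) was far scarcer, with 0.430, 0 and 0.586 CPM in WT1 to WT3 and 2.41, 2.02 and 2.85 CPM in KO1 to KO3, from 28 counts in all wild-type and 264 in all knockout libraries. WT2 had no Cyp1a1 count, and the groups did not overlap. The difference was 2.79 (SE 0.798, edgeR adjusted p = 0.0276), but the adjusted p was 0.0756 without WT1, 0.0784 without KO1 and 0.0567 without KO3, and the value ran from 2.24 without WT2 to 3.43 without WT3. With sex as a term the edgeR adjusted p of Cyp1a1 was 0.0554. Of the AHR pathway genes, Ahr itself rose (0.46, edgeR adjusted p = 0.00732), as did Tiparp, which ADP-ribosylates AHR and restrains it, from 18.3 ± 2.18 to 38.4 ± 0.905 CPM (1.07, edgeR adjusted p = 0.00213). Ahrr, the AHR repressor, went from 1.05 to 4.71 CPM (2.15, edgeR adjusted p = 0.0215), with an adjusted p of 0.0537 without WT1 and 0.0747 without KO1. Arnt, the dimer partner, gave 0.04 (edgeR adjusted p = 0.716). Ahr, Ahrr and Arnt were chosen for mention after their values were seen.

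The AHR dimer binds DNA at a core of GCGTG, and the 250 bases before the RefSeq start of each CYP1 gene (GRCm38.p6) are shown because both genes rose and both windows hold that core. They are written 5′ to 3′ on the strand of the gene, with the core, or its reverse complement CACGC, in capitals.
Cyp1a1, chr9:57697363-57697612, plus strand: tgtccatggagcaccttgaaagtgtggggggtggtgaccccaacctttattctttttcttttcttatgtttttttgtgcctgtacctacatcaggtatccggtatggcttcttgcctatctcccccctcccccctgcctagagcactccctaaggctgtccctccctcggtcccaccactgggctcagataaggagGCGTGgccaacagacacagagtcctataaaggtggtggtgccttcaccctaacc
Cyp1b1, chr17:79715062-79715311, minus strand: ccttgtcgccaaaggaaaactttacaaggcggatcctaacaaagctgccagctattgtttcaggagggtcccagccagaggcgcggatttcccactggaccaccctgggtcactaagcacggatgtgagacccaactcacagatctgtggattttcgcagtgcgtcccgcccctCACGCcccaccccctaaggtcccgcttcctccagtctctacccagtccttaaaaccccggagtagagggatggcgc
The core stood 54 bases before the start in Cyp1a1 and 76 bases before it in Cyp1b1, on the opposite strand. Neither window overlapped a GENCODE exon, and that of Cyp1a1 lies inside the span of the longer GENCODE gene model. GCGTG on either strand is common: 28.2% of 32851 RefSeq windows of this length held it, as did 12 of the 45 P450 genes with a window (26.7%). Among the 18 called P450 genes with a window, 7 held it, namely Cyp1a1, Cyp1b1, Cyp20a1, Cyp2j9, Cyp4f14, Cyp4f16 and Cyp4v3, which include higher and lower genes. The nuclear receptor half-site AGGTCA was in 14.0% of all windows and 7 of the 45, none of them called, and AGTTCA in 11.8% and 8 of the 45. A match describes the letters only, and nothing in these data measured binding.

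Vitamin D is activated by a pair of hydroxylations, and the 2 listed genes of the vitamin D role group moved in opposite directions. Cyp2r1 (ENSMUSG00000030670, chromosome 7, 114549682 to 114562972), which carries out the first step, read 1.21, 0.903 and 1.03 CPM in WT1 to WT3 and 3.06, 2.11 and 3.62 CPM in KO1 to KO3. The groups did not overlap, and the gene rose by 1.48 (SE 0.29, edgeR adjusted p = 0.00788). Cyp27b1 (ENSMUSG00000006724, chromosome 10, 127048250 to 127053006), which makes the active hormone in the second step, read 3.99, 4.43 and 3.10 CPM in WT1 to WT3 and 0.297, 0.852 and 0.206 CPM in KO1 to KO3. Even KO2, the highest knockout library, lay well below the lowest wild-type library. The means were 3.84 ± 0.676 CPM for wild type and 0.452 ± 0.350 CPM for knockout (SD, n = 3 animals a genotype), an 8.57-fold lower level and a log2 difference of -3.10 (SE 0.544, edgeR adjusted p = 0.00564). The call held in all 16 alternative fits, with values from -3.92 without KO2 to -2.33 with the acinar marker level as a term. The receptor gene Vdr, with means of 4.52 and 3.22 CPM in wild type and knockout, did not pass the test (-0.49, edgeR adjusted p = 0.117), and was also picked out after its value was seen.

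CYP26 enzymes break down retinoic acid, the vitamin A hormone, and 1 of the 3 listed genes was abundant enough to test. Cyp26b1 (ENSMUSG00000063415, chromosome 6, 84571414 to 84593908) read 3.64, 3.70 and 4.17 CPM in WT1 to WT3 and 15.7, 23.3 and 26.98 CPM in KO1 to KO3. The wild-type libraries were nearly equal and all knockout libraries were several times higher. The means were 3.83 ± 0.290 CPM for wild type and 22.0 ± 5.78 CPM for knockout (SD, n = 3 animals a genotype), a 5.73-fold rise and a log2 difference of 2.52 (SE 0.226, edgeR adjusted p = 0.00201), and leaving out single libraries gave 2.36 to 2.73. Of 11 other tested retinoid genes, 3 were higher and 2 lower, against 28.0% and 25.0% of all tested genes, and 6 did not pass. Stra6, a retinol importer, went from 2.19 ± 0.739 to 12.4 ± 0.887 CPM (2.49, edgeR adjusted p = 0.00218) and Rbp4, the retinol carrier that fat tissue also secretes, from 20.6 ± 8.38 to 76.0 ± 28.4 CPM (1.88, edgeR adjusted p = 0.0121). Aldh1a1, which makes retinoic acid, fell from 153 ± 19.8 to 73.9 ± 16.7 CPM (-1.05, edgeR adjusted p = 0.00567). Dhrs9, a retinol dehydrogenase, fell from 9.98 ± 3.67 to 2.86 ± 1.48 CPM (-1.80, edgeR adjusted p = 0.0224), but its adjusted p was 0.0653 without WT1, 0.065 without WT2 and 0.0826 without KO1.

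Among the 18 other CYP2 genes, 5 were tested, of which 1 rose and 1 fell, against 28.0% and 25.0% of all tested genes. Cyp2e1 (ENSMUSG00000025479, chromosome 7, 140763739 to 140774987) oxidises ethanol, ketone bodies and small solvents and is abundant in liver and present in fat tissue. It read 85.9, 52.4 and 40.2 CPM in WT1 to WT3 and 1523, 673 and 360.5 CPM in KO1 to KO3. Every knockout library exceeded every wild-type library, and the knockout values were widely spread, with KO1 highest and KO3 lowest. The means were 59.5 ± 23.7 CPM for wild type and 852 ± 602 CPM for knockout (SD, n = 3 animals a genotype), a 14.3-fold rise and a log2 difference of 3.84 (SE 0.635, edgeR adjusted p = 0.00551). Leaving out KO1 lowered the difference to 3.14, and leaving out KO3 raised it to 4.22, both past the threshold. Cyp2e1 made up 9.72% to 18.0% of all P450 counts in wild-type libraries and 72.7%, 53.8% and 42.1% in KO1, KO2 and KO3.

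The summed level of all 58 P450 genes was 477, 404 and 414 CPM in WT1 to WT3 and 2096, 1250.1 and 856 CPM in KO1 to KO3. Without Cyp2e1 the sums were 391, 352 and 374 CPM in WT1 to WT3 and 573, 577 and 496 CPM in KO1 to KO3, still without overlap. Such sums weigh abundant genes most. After Cyp2e1, the largest rises in mean CPM were those of Cyp1b1 (71.3 to 169.8 CPM) and Cyp4b1 (15.2 to 77.8 CPM), while 6 genes were called lower. The sum without these rising genes was not taken, so it does not describe the family as a whole. Hepatocyte markers together gave 106 to 169.7 CPM in wild type, against 14.9, 49.4 and 5.86 CPM in KO1, KO2 and KO3, with 1 of 6 tested markers higher (Apoc3) and 2 lower (Ahsg and Hpx). Fat cell markers summed to 15284, 11554 and 14376 CPM in KO1, KO2 and KO3, above every wild-type library. Cyp2e1 read 1523, 673 and 360.5 CPM in the same libraries. The part of fat cells in the rise of Cyp2e1 was not tested.

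Cyp2s1 (ENSMUSG00000040703, chromosome 7, 25802475 to 25816913), an enzyme of tissues outside the liver, read 8.45, 11.3 and 12.3 CPM in WT1 to WT3 and 7.49, 6.91 and 4.57 CPM in KO1 to KO3. The groups did not overlap but came close, and it fell by 0.76 (SE 0.245, edgeR adjusted p = 0.0402) on the log2 scale. Its adjusted p was 0.102 without WT2, 0.109 without WT3, 0.071 without KO1, 0.0574 without KO2 and 0.0902 without KO3, and 0.265 with library totals as scaling (-0.38), and 260 bases of its exons overlap an antisense gene, Gm26707. With sex as a term the edgeR adjusted p of Cyp2s1 was 0.0784. Cyp2d22 (ENSMUSG00000061740, chromosome 15, 82370527 to 82380260), of the CYP2D drug-metabolising group, had means of 31.5 ± 6.28 CPM for wild type and 29.4 ± 4.64 CPM for knockout (SD, n = 3 animals a genotype), with a difference of -0.10 and a 95% interval of -0.55 to 0.36. Cyp2f2 (ENSMUSG00000052974, chromosome 7, 27119909 to 27133660), which activates naphthalene in airway cells, read 2.70, 5.11 and 4.75 CPM in WT1 to WT3 and 18.0, 6.75 and 4.99 CPM in KO1 to KO3. KO1 alone stood out, KO3 lay within the wild-type range, and the difference of 1.24 (SE 0.543, edgeR adjusted p = 0.0974) did not pass the test, although it did without KO3 (1.57, adjusted p = 0.049). Without KO1 it was 0.50 (adjusted p = 0.317). The DESeq2 Wald test, and edgeR with library totals as scaling, called Cyp2f2 higher. Airway club cell markers, of which 3 were listed and 1 tested, summed to 5.10 to 10.1 CPM in wild type. In KO1, KO2 and KO3 their sums were 0.568, 2.18 and 0.0771 CPM. The part of airway cells in the values of Cyp2f2 was not tested. Cyp2c23, an arachidonic acid epoxygenase of kidney, stayed under 1 CPM in every library, and its difference was 1.05 (SE 0.547, edgeR adjusted p = 0.147).

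**Figure D2:**
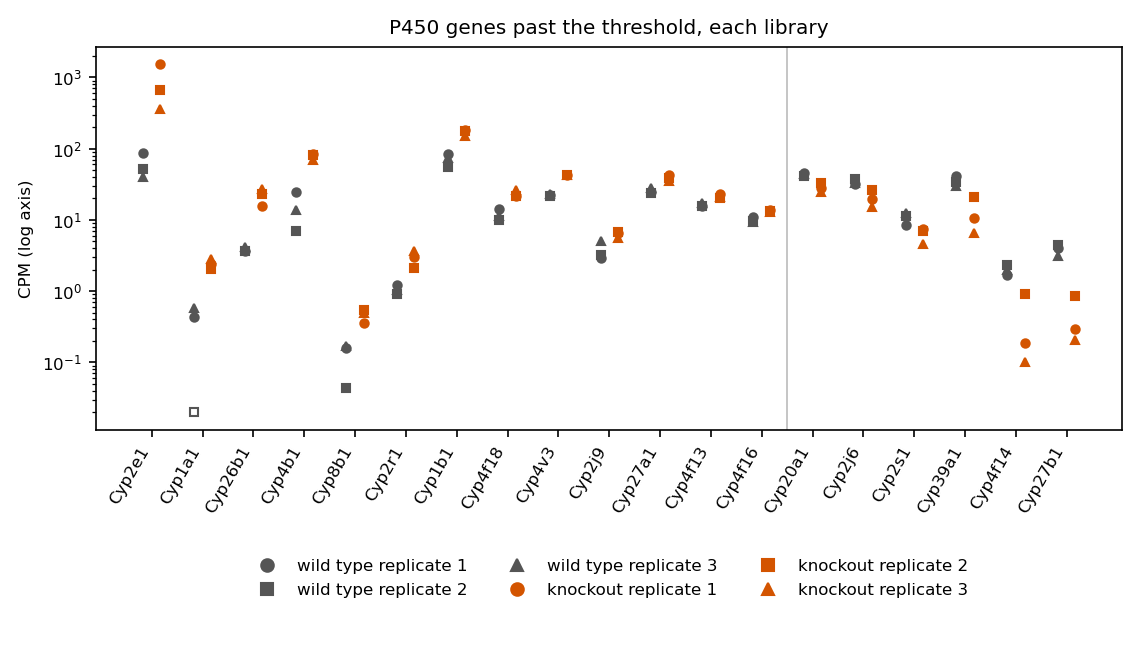
CPM (log axis) of the 19 P450 genes past the threshold in each of the 6 libraries, with wild type in grey, knockout in orange, the symbol giving the replicate, and the vertical line parting higher from lower genes. The open square marks WT2 for Cyp1a1, which had no count and is drawn at the foot of the axis. The groups do not overlap for any of the 19, and the knockout spread is wide for Cyp2e1 (360.5 to 1523 CPM) and the 3 lower genes at the right.

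CYP2J and CYP2U enzymes hydroxylate or epoxidise arachidonic acid and other fatty acids, and the 4 tested genes had no common direction. Cyp2j6 (ENSMUSG00000052914, chromosome 4, 96516138 to 96553661) read 32.0, 37.0 and 33.2 CPM in WT1 to WT3 and 19.5, 26.6 and 15.4 CPM in KO1 to KO3. All knockout libraries were lower than all wild-type libraries, and the gene fell by 0.73 (SE 0.204, edgeR adjusted p = 0.0245) on the log2 scale, with an adjusted p of 0.0528 without WT1, 0.0748 without WT2, 0.0554 without WT3 and 0.0989 without KO1. Scaling by library totals alone gave -0.35 (adjusted p = 0.121), and with sex as a term the edgeR adjusted p of Cyp2j6 was 0.0564. Its neighbour Cyp2j9 (ENSMUSG00000015224, chromosome 4, 96568429 to 96591578) read 2.94, 3.22 and 4.99 CPM in WT1 to WT3 and 6.597, 6.66 and 5.55 CPM in KO1 to KO3. The highest wild-type and the lowest knockout library were close, and the rise of 0.75 (SE 0.253, edgeR adjusted p = 0.0455) had an adjusted p of 0.126 without WT1, 0.131 without WT2, 0.129 without KO1, 0.101 without KO2 and 0.0658 without KO3. The edgeR adjusted p of Cyp2j9 was 0.0583 without a count filter and 0.0806 with sex as a term. Cyp2j5 (ENSMUSG00000052520, chromosome 4, 96628773 to 96664154), known from kidney, read 0.900, 1.29 and 1.38 CPM in WT1 to WT3 and 0.0811, 0.726 and 0 CPM in KO1 to KO3. It was not called, at -2.20 (SE 1.07, edgeR adjusted p = 0.129), though it passed without KO2, the knockout library with most of it, at -4.78. The limma-voom fit also called Cyp2j5 lower. With the acinar marker level as a term its sign turned, to 0.29 (adjusted p = 0.498). Cyp2u1 (ENSMUSG00000027983, chromosome 3, 131288441 to 131303227) had a difference of 0.14, with a 95% interval of -0.56 to 0.84. These Cyp2j genes lie in a cluster on chromosome 4 (96099318 to 96664154, GRCm38) that holds 5 listed P450 genes, so adjacent genes of 1 cluster passed the test in opposite directions.

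Among 14 tested enzymes that make or use arachidonic acid products outside the P450 family, 5 were higher, 1 lower and 8 did not pass the test. The shares over all tested genes were 28.0% higher and 25.0% lower. Ephx2, the soluble hydrolase that breaks down the epoxides made by P450 enzymes, rose from 15.5 ± 7.77 to 135 ± 1.77 CPM (3.12, edgeR adjusted p = 0.00255). Ltc4s, leukotriene C synthase, rose from 6.10 ± 1.10 to 17.1 ± 1.46 CPM (1.49, edgeR adjusted p = 0.00225). The prostaglandin enzymes Ptgs1 (0.41, edgeR adjusted p = 0.0116) and Ptges (1.13, edgeR adjusted p = 0.0173) were also higher. The calls of these last depended on single libraries, with an adjusted p of 0.0511 for Ptgs1 without WT2, and of 0.0534 and 0.0619 for Ptges without WT1 and WT2.

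CYP4 enzymes hydroxylate fatty acids and leukotrienes at the far end of the chain. Of 14 listed genes, 7 were tested, of which 5 rose and 1 fell, against 28.0% and 25.0% of all tested genes. Cyp4b1 (ENSMUSG00000028713, chromosome 4, 115624725 to 115647723), an enzyme of lung that oxidises fatty acids and plant toxins, read 24.7, 6.92 and 13.9 CPM in WT1 to WT3 and 85.0, 80.2 and 68.3 CPM in KO1 to KO3. The wild-type libraries differed among themselves several-fold, yet all 3 knockout libraries were far above them. The means were 15.2 ± 8.94 CPM for wild type and 77.8 ± 8.59 CPM for knockout (SD, n = 3 animals a genotype), a log2 difference of 2.36 (SE 0.45, edgeR adjusted p = 0.00832). Cyp4v3 (ENSMUSG00000079057, chromosome 8, 45304944 to 45333216), which hydroxylates medium-chain fatty acids, read 22.7, 21.5 and 23.1 CPM in WT1 to WT3 and 42.3, 42.7 and 42.3 CPM in KO1 to KO3. Its libraries were almost equal within each genotype, and the rise of 0.92 (SE 0.0749, edgeR adjusted p = 0.00201) had the smallest SE of any tested P450 gene. Some of its exon bases also belong to Gm45753 on the same strand, and 7.02% of its 50-base stretches occur in other genes.

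Cyp4f18 (ENSMUSG00000003484, chromosome 8, 71988482 to 72009626), which inactivates leukotrienes in white blood cells, read 14.4, 9.97 and 11.5 CPM in WT1 to WT3 and 21.6, 21.7 and 26.1 CPM in KO1 to KO3. Every knockout library was above every wild-type library, and the gene rose by 0.95 (SE 0.166, edgeR adjusted p = 0.00556). Beside it, T cell markers summed to 52.4 to 157.6 CPM in wild type, against 393 to 982 CPM in knockout, B cell markers to 105 to 333 and 1152 to 1747 CPM, and macrophage markers to 855 to 912 and 966 to 1205 CPM. All 8 T cell and all 7 B cell markers were called higher. Of the 7 macrophage markers, 2 were higher, 1 lower and 4 not called. The part of these cells in the rise of Cyp4f18 was not tested, and 181 exon bases of Cyp4f18 overlap Zfp961 on the opposite strand.

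The other CYP4F genes lie together on chromosome 17 (32452723 to 32947402, GRCm38), where 8 genes were listed and 4 tested. Cyp4f13 (ENSMUSG00000024055, chromosome 17, 32924688 to 32947402) read 15.5, 15.6 and 17.2 CPM in WT1 to WT3 and 23.1, 20.01 and 21.05 CPM in KO1 to KO3. Cyp4f16 (ENSMUSG00000048440, chromosome 17, 32536558 to 32551798) read 11.2, 9.58 and 9.37 CPM in WT1 to WT3 and 13.7, 13.1 and 13.0 CPM in KO1 to KO3. Both rose by small amounts with no overlap, 0.41 (SE 0.101, edgeR adjusted p = 0.0167) and 0.40 (SE 0.119, edgeR adjusted p = 0.0307). For Cyp4f13 the adjusted p was 0.0589 without WT1, 0.0635 without WT2 and 0.0597 without KO1. For Cyp4f16 it was 0.104 without WT2, 0.0931 without WT3 and 0.0762 without KO1, 0.0525 without a count filter and 0.0516 with sex as a term. In addition, 17.4% of the 50-base stretches of Cyp4f16 occur in other genes, mostly in Cyp4f37, so the counts of Cyp4f16 are uncertain. Cyp4f14 (ENSMUSG00000024292, chromosome 17, 32905070 to 32917342), a leukotriene hydroxylase of liver, went the other way, with 1.68, 2.36 and 1.998 CPM in WT1 to WT3 and 0.189, 0.915 and 0.103 CPM in KO1 to KO3. KO2 had several times more than the other knockout libraries but less than any wild-type library, and the gene fell by 2.35 (SE 0.743, edgeR adjusted p = 0.0377) on the log2 scale. Its adjusted p was 0.073 without WT1, 0.0943 without WT2, 0.0788 without WT3, 0.129 without KO1 and 0.0671 without KO3, and without KO2 the difference was -3.76. With sex as a term the edgeR adjusted p of Cyp4f14 was 0.0634. Cyp4f17 (ENSMUSG00000091586, chromosome 17, 32506050 to 32530143) had a difference of 0.27, with a 95% interval of -0.21 to 0.74. It was called higher only with library totals as scaling.

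Of the 6 bile acid and oxysterol genes, 5 were tested, of which 2 rose and 1 fell, against 28.0% and 25.0% of all tested genes. Cyp27a1 (ENSMUSG00000026170, chromosome 1, 74713574 to 74737892), the mitochondrial sterol hydroxylase that starts the acidic route to bile acids, read 24.3, 24.03 and 28.1 CPM in WT1 to WT3 and 42.4, 38.7 and 35.0 CPM in KO1 to KO3. The groups did not overlap, and the rise was 0.60 (SE 0.111, edgeR adjusted p = 0.00648). Cyp39a1 (ENSMUSG00000023963, chromosome 17, 43667425 to 43751431), which hydroxylates oxysterols, read 40.7, 33.9 and 30.1 CPM in WT1 to WT3 and 10.5, 21.05 and 6.45 CPM in KO1 to KO3. KO2 kept more of it than KO1 and KO3, and all were below wild type. The means were 34.9 ± 5.33 CPM for wild type and 12.7 ± 7.54 CPM for knockout (SD, n = 3 animals a genotype), a log2 difference of -1.46 (SE 0.431, edgeR adjusted p = 0.0318), with an adjusted p of 0.0885 without WT1, 0.0769 without WT2, 0.0623 without WT3 and 0.108 without KO1. The edgeR adjusted p of Cyp39a1 was 0.0772 without a count filter and 0.0745 with sex as a term.

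Cyp8b1 (ENSMUSG00000050445, chromosome 9, 121914356 to 121916305), which directs bile acid synthesis to cholic acid, rested on 10 counts in wild type and 49 in knockout. It read 0.157, 0.0430 and 0.172 CPM in WT1 to WT3 and 0.351, 0.536 and 0.488 CPM in KO1 to KO3 and rose by 1.82 (SE 0.482, edgeR adjusted p = 0.021), with an adjusted p of 0.0519 without WT1, 0.0507 without WT2 and 0.0512 without KO3. By the DESeq2 Wald test the adjusted p of Cyp8b1 was 0.0502, and by edgeR with the acinar marker level as a term 0.0703. Cyp7b1 (ENSMUSG00000039519, chromosome 3, 18071950 to 18243338), another oxysterol hydroxylase, had a difference of 0.15, with a 95% interval of -0.35 to 0.65. Cyp46a1 (ENSMUSG00000021259, chromosome 12, 108334381 to 108362234), the cholesterol hydroxylase of neurons, read 1.29, 1.59 and 1.31 CPM in WT1 to WT3 and 1.14, 0.978 and 0.360 CPM in KO1 to KO3. It was not called, at -0.76 (SE 0.438, edgeR adjusted p = 0.18). Nr1h3, which encodes the oxysterol receptor LXR alpha, rose from 28.3 ± 2.59 to 73.3 ± 1.88 CPM (1.37, edgeR adjusted p = 0.00201), and its partner Rxra from 103 ± 5.02 to 154 ± 14.1 CPM (0.59, edgeR adjusted p = 0.00465).

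Cyp3a13 (ENSMUSG00000029727, chromosome 5, 137892932 to 137921619), the only tested CYP3A gene and known from intestine and liver, read 6.57, 7.69 and 4.86 CPM in WT1 to WT3 and 1.05, 2.37 and 0.0771 CPM in KO1 to KO3. All knockout libraries lay below wild type, KO3 with 3 counts, and the difference of -2.46 (SE 0.94, edgeR adjusted p = 0.0693) missed the threshold. Without KO2 it was -3.50 (adjusted p = 0.0288) and without KO3 -1.88 (adjusted p = 0.0215), whereas without KO1 the adjusted p was 0.18. The DESeq2 Wald test and limma, with or without voom, called Cyp3a13 lower. With the acinar marker level as a term it gave -0.92 (edgeR adjusted p = 0.0793). Intestinal enterocyte markers summed to 311 to 443 CPM in wild type, against 101.2, 192 and 59.9 CPM in KO1, KO2 and KO3. Of the 7 markers 3 were tested, with 1 lower and 2 not called. The part of intestinal cells in the values of Cyp3a13 was not tested. Cyp11a1 (ENSMUSG00000032323, chromosome 9, 58006411 to 58027023), which makes pregnenolone from cholesterol in the first step of steroid hormone synthesis, read 0.235, 0.817 and 1.24 CPM in WT1 to WT3 and 0.162, 0.442 and 0.206 CPM in KO1 to KO3, and its difference of -1.52 (SE 0.674, edgeR adjusted p = 0.0991) did not pass the test but did without WT1, the wild-type library with least of it. Leaving out single libraries gave -2.05 (without KO2) to -0.97 (without WT3). The 8 adrenal cortex markers together gave 35.8 to 50.4 CPM in wild type, against 72.3 to 88.6 CPM in knockout. Of the 4 tested, Mc2r and Mrap, which fat cells also express, were higher, Fdx1 was lower and Star did not pass. Hsd3b1 and Nr0b1 were at 0 in all libraries other than WT3, and the part of adrenal tissue in the values of Cyp11a1 was not tested. Cyp20a1 (ENSMUSG00000049439, chromosome 1, 60343323 to 60388060), an orphan enzyme with no established substrate, read 45.98, 41.7 and 43.6 CPM in WT1 to WT3 and 28.1, 32.5 and 24.6 CPM in KO1 to KO3. The groups did not overlap and the gene fell by 0.62 (SE 0.12, edgeR adjusted p = 0.00738) on the log2 scale, but scaling by library totals alone gave -0.23 (adjusted p = 0.143).

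Levels were compared between genes per exon length, as RPKM from the TMM-scaled values. In wild type Cyp2e1 had the highest mean level (27.6 ± 10.96 RPKM), followed by Cyp20a1 (19.1 ± 0.941 RPKM), Cyp1b1 (12.2 ± 2.51 RPKM), Cyp27a1 (11.7 ± 1.05 RPKM) and Cyp39a1 (11.4 ± 1.75 RPKM, SD, n = 3). The SD of Cyp2e1 reached the level of Cyp20a1, and the last 3 did not differ beyond their SDs. In knockout Cyp2e1 led with 395 ± 279 RPKM, ahead of Cyp4b1 (34.5 ± 3.81 RPKM), Cyp1b1 (29.1 ± 2.82 RPKM) and Cyp27a1 (17.8 ± 1.69 RPKM). Cyp4f18 (12.5 ± 1.38 RPKM) and Cyp20a1 (12.4 ± 1.72 RPKM) came next and were within their SDs of each other. By mean RPKM, Cyp39a1 went from rank 5 to rank 13 and Cyp27b1 from rank 18 to rank 26, while Cyp26b1 went from rank 21 to rank 14.

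**Figure D3:**
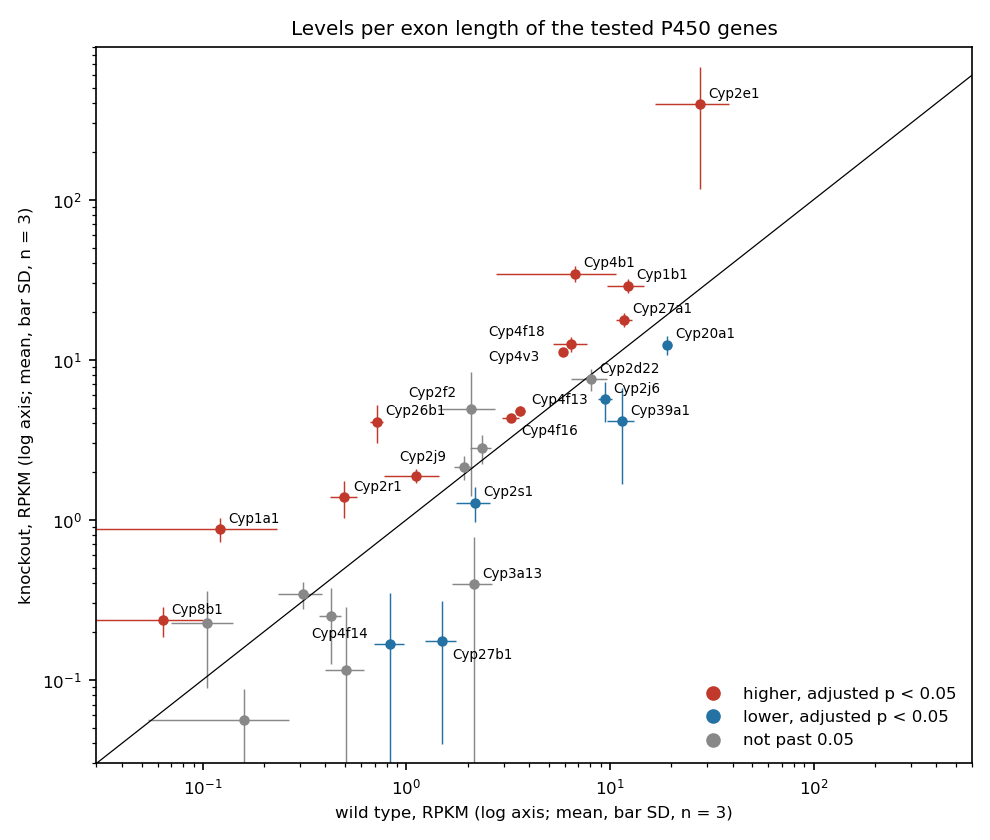
Mean RPKM of each tested P450 gene in wild type (x axis) and knockout (y axis), both log axes, with SD bars (n = 3) cut where they leave the axes, the line of equal levels, and colour for the edgeR call. Cyp2e1 lies highest in both genotypes, and among the called genes Cyp27b1 and Cyp4f14 lie farthest below the line.

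The 6 lower P450 genes were set beside the acinar markers, since both differed between the knockout libraries. The median acinar marker lay at -3.13 in KO1, -1.12 in KO2 and -10.87 in KO3, as log2(CPM + 0.5) minus its wild-type mean. In 5 of the 6 lower P450 genes the knockout libraries had that same order, highest in KO2 and lowest in KO3. The exception was Cyp2s1, and 52.6% of the 4415 genes lower in knockout had this order as well. With the acinar marker level as a term, 8 P450 genes were called higher and 2 lower, namely Cyp27b1 (-2.33, edgeR adjusted p = 0.0192) and Cyp20a1 (-0.45, edgeR adjusted p = 0.0371). Calls over all tested genes fell as well in that fit, to 18.1% higher and 14.5% lower, from 28.0% and 25.0%. The term, a median log2(CPM + 0.5), was 12.8 to 13.0 in wild type, against 9.78, 11.96 and 2.55 in KO1, KO2 and KO3. It was lower in every knockout library, so this fit cannot tell acinar content and genotype apart, for calls kept or lost. Without KO3, Cyp27b1 gave -2.73, Cyp39a1 -1.13, Cyp2j6 -0.55 and Cyp20a1 -0.51, all still past the threshold, whereas Cyp4f14 gave -1.86 (edgeR adjusted p = 0.0671) and Cyp2s1 -0.56 (edgeR adjusted p = 0.0902).

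**Figure D4:**
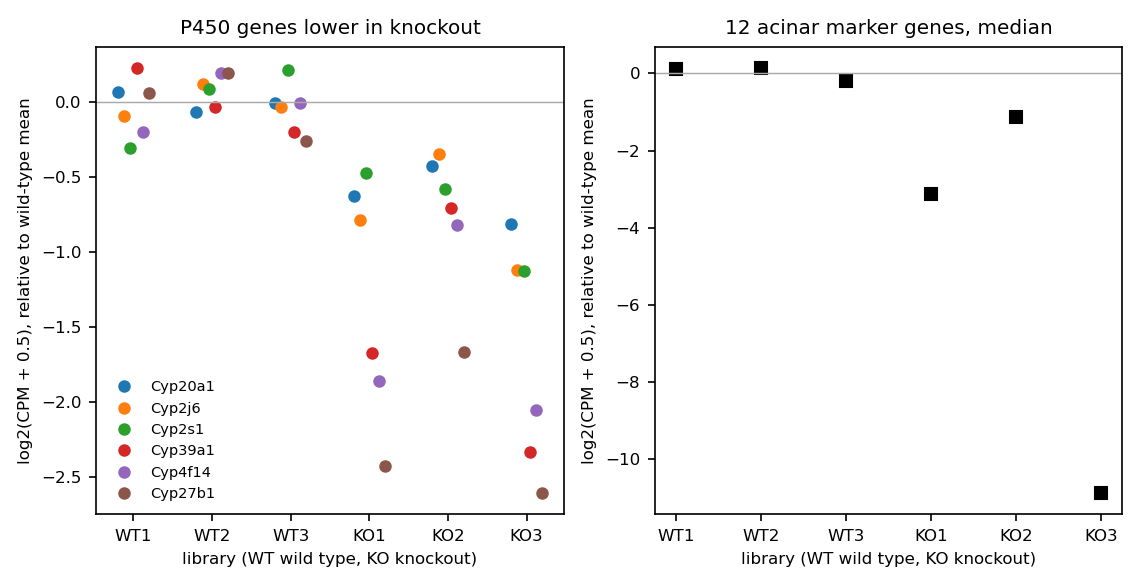
Log2(CPM + 0.5) minus the mean of the wild-type libraries, in each library, for the 6 lower P450 genes (left, 1 colour per gene) and for the median of the 12 acinar marker genes (right, on a wider y axis). KO2 lies highest of the knockout libraries for 5 of the 6 genes and for the markers, at -1.12, and KO3 lowest for all 6 genes and for the markers, at -10.87.

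Of 9 tested genes for the partners that feed electrons to P450 enzymes, 2 were higher, 3 lower and 4 did not pass. Over all tested genes 28.0% were higher and 25.0% lower. Por, the reductase of the endoplasmic reticulum, rose from 58.0 ± 6.47 to 143 ± 34.6 CPM (1.30, edgeR adjusted p = 0.00399), and Cyb5a, which assists it, from 91.8 ± 7.45 to 159.9 ± 11.1 CPM (0.80, edgeR adjusted p = 0.00253). The mitochondrial Fdxr fell from 33.9 ± 4.62 to 14.6 ± 0.604 CPM (-1.21, edgeR adjusted p = 0.00208), and Fdx1 from 28.2 to 13.97 CPM (-1.01, edgeR adjusted p = 0.00489). Cyb5r1, a cytochrome b5 reductase, fell from 46.8 ± 3.55 to 25.9 ± 1.32 CPM (-0.85, edgeR adjusted p = 0.00217).

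Heme, the cofactor of every P450 enzyme, is made by a short pathway. Of 12 tested genes for its synthesis and breakdown, 4 were higher and 2 lower, against 28.0% and 25.0% of all tested genes. The other 6 did not pass. Alas1, the rate-limiting enzyme outside red cells, rose by 0.89 (edgeR adjusted p = 0.0175), but with an adjusted p of 0.055 without WT2 and 0.0575 without WT3. Cpox fell from 78.4 ± 5.17 to 29.0 ± 8.44 CPM (-1.43, edgeR adjusted p = 0.00355), while Blvrb, a biliverdin reductase, rose from 16.1 ± 1.33 to 32.1 ± 1.07 CPM (0.99, edgeR adjusted p = 0.00201).

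Of 18 tested regulators of P450 transcription, 9 were higher, 2 lower and 7 did not pass the test. Among all tested genes 28.0% were higher and 25.0% lower. Of the lower regulators, Rxrb turned from -0.34 to 0.06 with scaling by library totals, and its adjusted p was 0.0515 without WT2 and 0.0608 without KO1. Besides those named above, Rxrg, a partner receptor, rose from 1.66 ± 0.469 to 7.31 ± 0.955 CPM (2.13, edgeR adjusted p = 0.0026). The genes for the drug receptors PXR and CAR, Nr1i2 and Nr1i3, had too few counts to be tested. Among 7 tested steroid and sterol enzymes outside the family, Srd5a1, a steroid reductase, fell from 16.0 ± 1.40 to 3.16 ± 1.85 CPM (-2.35, edgeR adjusted p = 0.00585), and 5 did not pass. Hsd17b7, a sterol reductase, gave 0.47 (edgeR adjusted p = 0.0124), with an adjusted p of 0.051 without WT2. Of the 4 tested P450 genes outside the name pattern, Cyp51, Cyp2ab1, Tbxas1 and Ptgis, 0 passed the edgeR test, also at an unadjusted p under 0.05, and 0 by DESeq2 or limma.

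The 29 P450 genes not tested held between 2 and 59 counts over the 6 libraries, and none exceeded 0.622 CPM in any library. They comprised 13 of the other CYP2 genes, 7 CYP4, 3 steroid hormone, 2 CYP2J, 2 CYP26, 1 CYP3A and 1 bile acid gene. Most counts fell on Cyp4f37 (59), Cyp4f15 (54) and Cyp2c68 (35). Of all 58 genes, 12 share over 10% of their 50-base stretches with other genes, and Cyp4f16 was the only one of these among the called.

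Over 16 alternative fits, 9 of the 19 calls held in each: Cyp1b1, Cyp2r1, Cyp2e1, Cyp4b1, Cyp4v3, Cyp4f18, Cyp27a1 and Cyp26b1 among the higher genes and Cyp27b1 alone among the lower. Their largest adjusted p was 0.0462. Of the 10 other calls, 9 were lost when some single library was left out, and that of Cyp20a1 was lost only when libraries were scaled by their totals. Over all tested genes the share called also moved, from 53.0% in the reported test to 32.5% with the acinar marker term and 34.1% without KO1. It ran from 29.7% (no count filter) to 57.2% (at least 1 CPM in 3 libraries). How many calls of all genes held in each fit was not counted, so the P450 count has no background.

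**Figure D5:**
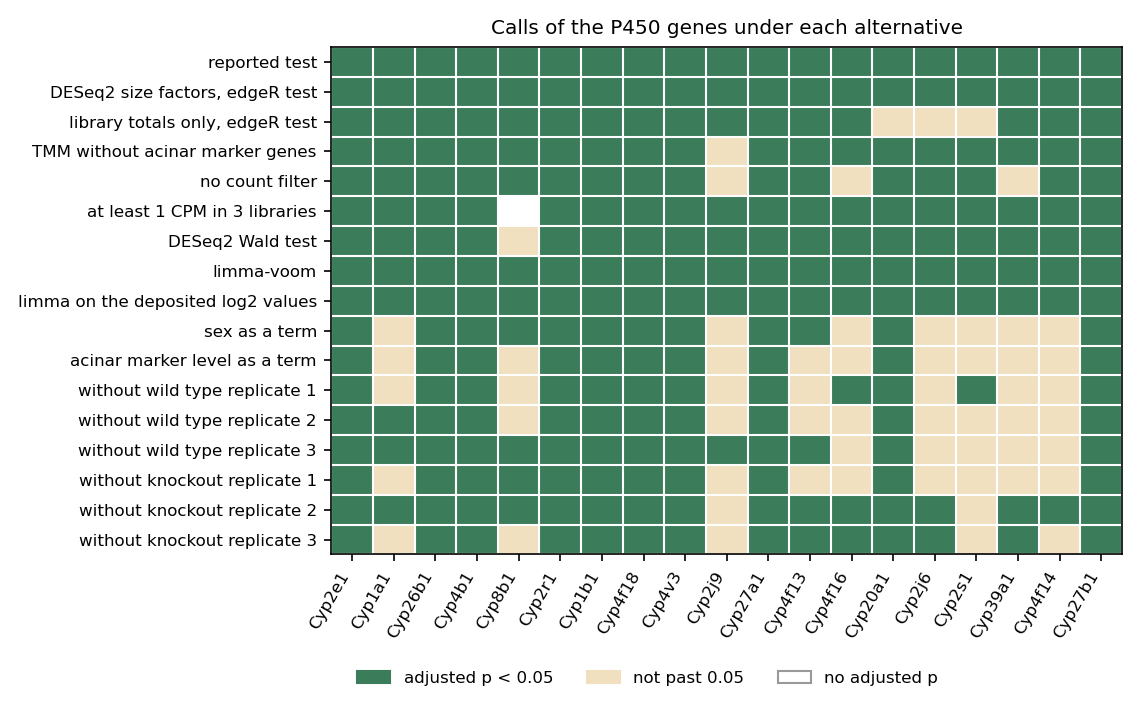
Calls of the 19 P450 genes (columns) in the reported test and 16 alternative fits (rows), with green for adjusted p under 0.05, beige for a call lost and white where the gene did not pass the filter of that fit. The columns that are green throughout are the 9 genes whose call held, and losses gather in the fits that add a term or leave out a library.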

How the data were processed

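RNA was measured by stranded mRNA sequencing, per the labels' protocols. The authors deposited whole-number read counts per gene and log2 values. Dividing each count by its library's DESeq2 size factor, adding 1 and taking log2 gave the deposited log2 values within 5.2e-14. The submitters' processing notes name DESeq2 1.28.1, STAR 2.5.3a, FastQC 0.11.5 and the build GRCm38 (mm10), without their roles. Not given in the sources used here were the counter, its strand setting, its handling of multiply matching reads and the annotation, so overlapping genes and close paralogs have uncertain counts.

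Counts were tested with edgeR 4.0.16 in R 4.3.3 (TMM scaling, its default group-wise expression filter, robust quasi-likelihood F-test, genotype as the only term), and p-values were adjusted by Benjamini-Hochberg over the 17652 genes kept. SEs are the absolute log2 fold change over the square root of F. RPKM was computed from TMM-scaled CPM and merged exon lengths of GENCODE vM21 (GRCm38), whose coordinates matched those of all 58 genes. Shared stretches were counted over transcripts, 50 bases long. Same-genotype libraries differed beyond sampling noise, with a chi-square per degree of freedom of 29.1 to 461. With 3 animals a genotype, precision is set by the spread between animals, and zero counts allow up to 3 counts (0.0771 to 0.129 CPM).

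The genes and lists were chosen with earlier results of these data known. Named genes were every called P450 gene, every tested one with a mean of at least 1 CPM, and up to 4 called genes of smallest p in each pathway list. Cyp2j5, Cyp2c23, Cyp11a1, Ahr, Ahrr, Arnt, Rxrb, Vdr and Fdx1 fall outside that rule and were added after their values were seen, and 1 gene that the rule names is not reported here. Alternatives were other scalings, filters and thresholds, the DESeq2 1.42.0 Wald test, limma 3.58.1 (with voom, or on the log2 values), a term for sex or for acinar marker level, and the omission of each library. On simulated counts of 17652 genes, edgeR recovered 31 of 100 genes simulated with 2-fold differences and 74 of 100 with 4-fold ones, and the false share of its calls was 2.78%. That simulation gave 108 calls, against 9353 of 17652 genes in the data. The adjustment of p-values depends on the share of genes that differ, so these rates do not carry over to the data.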

Additional observations from a re-analysis of the deposited data

How the results depend on the processing

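Counts of called P450 genes, 13 higher and 6 lower, moved by over 1.5 times, or with them those of all genes (4938 higher, 4415 lower), as follows. With library totals alone 3 P450 genes were lower, and over all genes 7475 were higher and 2160 lower. That scaling raised the median log2 fold change of all genes by 0.40, and the higher share of calls from 52.8% to 77.6% over all genes and from 68.4% to 83.3% among P450 genes. With sex as a term 10 were higher and 2 lower, against 23.8% and 18.7% of all genes. The edgeR adjusted p with that term was 0.0554 for Cyp1a1, 0.0564 for Cyp2j6, 0.0806 for Cyp2j9 and 0.0784 for Cyp2s1. For Cyp4f16 it was 0.0516, for Cyp4f14 0.0634 and for Cyp39a1 0.0745, so all of these calls were lost. With the acinar marker level as a term 8 were higher and 2 lower, against 3189 and 2552 of all genes. At adjusted p under 0.01, 8 and 2 remained past the threshold, against 2766 and 2103. Requiring also a log2 difference of at least 1 at 0.05 left 7 and 3, against 2683 and 1895. Leaving out each library gave 9 to 13 higher and 2 to 7 lower P450 genes, and 3602 to 5125 higher and 2543 to 5032 lower over all genes, the lower count being least without KO1. The lower P450 count was 2 without WT2, WT3 or KO1. The cause of these shifts was not tested.

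Among the P450 genes, changes of sign came in 4 that were not called, and among the called genes of the pathway lists in Rxrb (0.06 with library totals). Cyp2j5 gave 0.29 with the acinar marker term. Cyp2u1 gave -0.11 with the acinar marker term, and -0.050 (without WT1) to 0.281 (without WT3) when single libraries were left out. Cyp2d22 gave 0.29 with library totals, 0.12 with the acinar marker term, and -0.255 (without WT1) to 0.038 (without KO3) when single libraries were left out. Cyp4f17 gave -0.035 with the acinar marker term. Over the named genes, 676 values kept direction and side of the threshold, 74 lost the call, 9 gained it and 8 changed sign. Cyp8b1, Cyp2j5, Cyp2c23 and Cyp11a1 did not pass the filter of at least 1 CPM in 3 libraries. No paired analysis was possible because the labels give no replicate numbers shared by the genotypes. Cyp1a1 and Cyp8b1 rested on 28 and 10 wild-type counts in all, and the part of depth in their values was not tested.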
